A study of Mus musculus with 16 samples.

Results

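The opioid system of mouse primary cortical neurons (PNCs) was described here by the mRNA of 7 genes. They are the 4 opioid receptor genes *Oprm1* (mu), *Oprd1* (delta), *Oprk1* (kappa) and *Oprl1* (nociceptin receptor) and the 3 opioid peptide precursor genes *Penk* (proenkephalin), *Pdyn* (prodynorphin) and *Pnoc* (prepronociceptin). They were chosen by gene symbol because the mu receptor is a known target of tianeptine (TIA), an antidepressant, and they are 7 of the 53679 gene symbols measured, with 55 annotated isoforms. PNCs of wild-type mouse embryos (E15; labelled wt, and no strain is given in the labels) were treated on day 8 in vitro with vehicle or 10 µM TIA, and 24 h later with 3 h of oxygen–glucose deprivation (OGD), a culture model of ischemia, or with sham. RNA of all 16 cultures was taken at 6 h of reoxygenation. Cultures 1 to 4 were CONTROL-VEH (sham, vehicle), 5 to 8 CONTROL-TIA (sham, TIA), 9 to 12 OGD-VEH (OGD, vehicle) and 13 to 16 OGD-TIA (OGD, TIA). The 4 cultures of a group are described as biological replicates, and it is not stated whether they came from separate embryo preparations.

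Opioid receptors are G protein-coupled receptors that signal through inhibitory G proteins: they lower cAMP, open inwardly rectifying potassium (GIRK) channels and close voltage-gated calcium channels, which dampens neuronal firing and transmitter release. Enkephalins, from *Penk*, act mainly at delta and mu receptors, dynorphins, from *Pdyn*, at kappa receptors, and nociceptin, from *Pnoc*, at the nociceptin receptor, which does not bind the classical opioids with high affinity. In the cortex, *Penk*, *Pdyn* and *Pnoc* mRNA is found in subsets of neurons, many of them inhibitory interneurons. The receptor genes lie on different chromosomes (GRCm38): *Oprm1* at chr10:6758506-7038198, *Oprk1* at chr1:5588466-5606131 and *Oprl1* at chr2:181715016-181720985 on the plus strand, and *Oprd1* at chr4:132110726-132144486 on the minus strand. The precursor genes *Penk* (chr4:4133531-4138819), *Pdyn* (chr2:129686565-129699844) and *Pnoc* (chr14:65400673-65425472) are all on the minus strand.

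The precursors differ in how many opioid peptides a single mRNA encodes, and the stretches that encode them are shown because they define the 3 genes as opioid precursors. In each line the opioid core is in capitals, with the bases that encode the residues on either side in lower case, 5′ to 3′ on the coding strand (GENCODE M21 transcripts, build GRCm38). The second exon of Penk-201 encoded 7 cores, of which 6 are Met-enkephalin and 1 is Leu-enkephalin, with 6 distinct coding sequences. All 7 cores followed a pair of basic residues, the site at which prohormone convertases cut. The first Met-enkephalin core, the Leu-enkephalin core and the last Met-enkephalin core of *Penk* read as follows.
Penk core 1 (chr4:4134328-4134354, minus strand): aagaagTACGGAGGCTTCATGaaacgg
Penk core 6 (chr4:4133935-4133961, minus strand): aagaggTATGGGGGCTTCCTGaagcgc
Penk core 7 (chr4:4133842-4133868, minus strand): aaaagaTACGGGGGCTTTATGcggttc
The fourth exon of Pdyn-201 encoded 3 Leu-enkephalin cores, which open the dynorphin-family peptides.
Pdyn core 1 (chr2:129688232-129688258, minus strand): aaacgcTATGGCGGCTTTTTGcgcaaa
Pdyn core 2 (chr2:129688124-129688150, minus strand): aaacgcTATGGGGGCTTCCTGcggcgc
Pdyn core 3 (chr2:129688067-129688093, minus strand): aagcgcTATGGTGGTTTCCTGcggcgt
The third exon of Pnoc-202 encoded a single nociceptin. Its first codon is for phenylalanine (TTT), where the enkephalin cores open with tyrosine (TAC or TAT).
Pnoc nociceptin (chr14:65404836-65404898, minus strand): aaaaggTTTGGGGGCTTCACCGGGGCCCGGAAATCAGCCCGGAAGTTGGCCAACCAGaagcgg

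**Figure D1:**
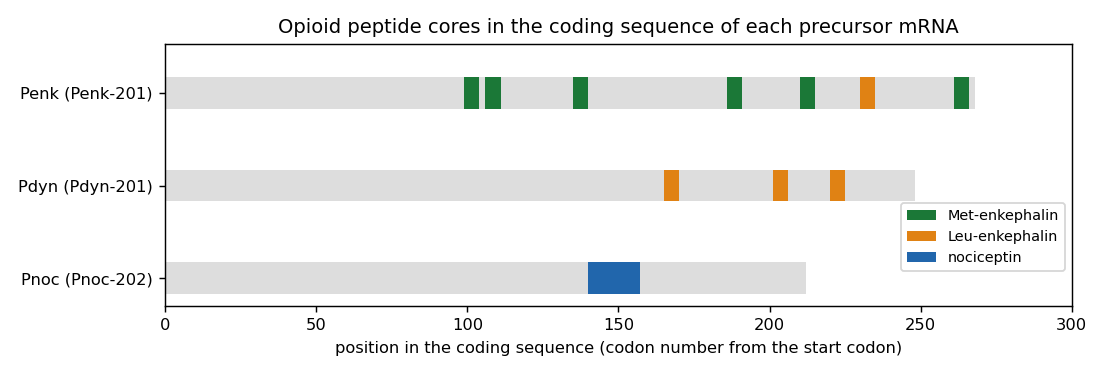
Map of the opioid peptide cores in the coding sequence of Penk-201, Pdyn-201 and Pnoc-202, with the position in codons from the start codon on the x axis and the whole coding sequence as a grey bar. Penk holds 7 enkephalin cores between codons 100 and 262 of 268, Pdyn holds 3 from codon 166 of 248 on, and Pnoc holds nociceptin from codon 141 of 212 on.

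Levels are given in FPKM (reads scaled for transcript length and sequencing depth, so that genes of different length can be compared), summed over the isoforms of a gene. In CONTROL-VEH the order from high to low was *Oprl1*, *Penk*, *Pnoc*, *Pdyn*, *Oprd1*, *Oprm1* and *Oprk1*. *Oprl1* had 34.3 ± 2.39 FPKM (mean ± SD, n = 4), *Penk* 7.73 ± 3.20, *Pnoc* 2.66 ± 1.63 and *Pdyn* 1.58 ± 0.264 FPKM, whereas *Oprd1* had 0.567 ± 0.0907, *Oprm1* 0.164 ± 0.0405 and *Oprk1* 0.145 ± 0.0447 FPKM. The ranges of the 4 cultures overlapped between *Penk* and *Pnoc*, between *Pnoc* and *Pdyn*, and between *Oprm1* and *Oprk1*, so the order within these pairs was not resolved. In every one of the 16 cultures *Oprl1* made up most of the summed receptor FPKM, from 96.5% to 98.9%. Of the *Oprl1* FPKM, 54.4% was assigned to isoforms annotated as processed transcripts or as targets of nonsense-mediated decay, and on protein-coding isoforms alone *Oprl1* made up 92.9% to 97.1% of the receptor FPKM. *Penk* made up a median of 64.6% of the summed precursor FPKM, with a range from 36.6% to 75.4%. Over all 16 cultures *Oprl1* stood at the 75.9th percentile of 21848 protein-coding genes, *Penk* at the 55.8th and *Oprm1* at the 32.5th.

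The low receptors rested on few reads. From the smallest steps of the values, depth was estimated at 21900000 to 28200000 reads per culture (the labels give 18000000 to 23000000 aligned reads, so the estimates are approximate), and *Oprm1* then had 1 to 17 reads per culture, *Oprk1* 2 to 25 and *Oprd1* 12 to 68. *Penk* had 49 to 246, *Pdyn* 34 to 94, *Pnoc* 31 to 143 and *Oprl1* 858 to 1896 estimated reads, so *Oprl1* was the most precisely measured member. *Oprm1* overlaps *Ipcef1* on the opposite strand (2.42 FPKM on average), but their exons share 96 bases and the isoform with most of the *Oprm1* FPKM shares none. *Penk* shares 233 exon bases with *A830012C17Rik* on the opposite strand, which averaged 0.020 FPKM.

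The question of the first comparison is what OGD does to these genes without and with TIA. *Oprl1*, the nociceptin receptor, is described first as the member with the most reads. It measured 32.4, 32.3, 35.4 and 37.2 FPKM in CONTROL-VEH, against 25.1, 22.5, 18.1 and 21.3 FPKM in OGD-VEH. All 4 OGD-VEH cultures lay below all 4 CONTROL-VEH cultures. *Oprl1* fell by 0.66 on the log2 scale (SE 0.13, limma adjusted p (padj) = 0.0345; exact two-sided permutation p = 0.0286, the smallest that 4 against 4 cultures allow). With TIA it measured 39.4, 32.0, 43.7 and 30.0 FPKM in CONTROL-TIA and 25.0, 31.7, 28.1 and 20.2 FPKM in OGD-TIA. Here only OGD-TIA culture 14, at 31.7, reached into the CONTROL-TIA range, and the log2 difference was −0.47 (SE 0.17, limma padj = 0.207; exact permutation p = 0.0571). Over both arms, with TIA as a covariate, *Oprl1* fell by 0.57 (SE 0.11, limma padj = 0.00296; stratified exact permutation p = 0.000816). The call within vehicle rested on all 8 cultures: limma padj lay between 0.0610 and 0.103 in 7 of the 8 fits that left a culture out, and was 0.00649 without OGD-VEH culture 9. It was 0.0650 without a filter on low values.

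On the protein-coding isoforms of *Oprl1* alone, an alternative chosen after the isoform values were seen, CONTROL-VEH cultures measured 13.1, 11.7, 13.6 and 17.6 FPKM and OGD-VEH cultures 14.6, 7.21, 9.92 and 5.43 FPKM. OGD-VEH culture 9 then lay inside the CONTROL-VEH range, and the difference of −0.67 did not pass (limma padj = 0.142; exact permutation p = 0.114). With TIA all OGD cultures, at 12.5 to 13.9 FPKM, lay below the CONTROL cultures, at 14.2 to 21.2 FPKM (log2 difference −0.38, limma padj = 0.189; exact permutation p = 0.0286). Over both arms *Oprl1* fell by 0.52 on this measure (limma padj = 0.0266). The measure rests on how reads were split among overlapping isoforms, and that split varied between cultures. Oprl1-206, a processed transcript and the isoform with the most FPKM, held from 0.0% to 35.2% of the *Oprl1* FPKM. In the CONTROL-TIA cultures it measured 13.9, 0.505, 13.3 and 0.011 FPKM.

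The 3 classical receptors were low in all groups. For *Oprm1*, the mu receptor, CONTROL-VEH cultures measured 0.119, 0.212, 0.145 and 0.179 FPKM and OGD-VEH cultures 0.049, 0.054, 0.060 and 0.097 FPKM. CONTROL-TIA cultures measured 0.175, 0.136, 0.101 and 0.285 FPKM and OGD-TIA cultures 0.069, 0.080, 0.050 and 0.088 FPKM. In summed FPKM every OGD culture of an arm lay below every CONTROL culture of that arm (exact permutation p = 0.0286 in each). In vehicle this also held with isoforms weighted by their length and on protein-coding isoforms alone, but with TIA the groups overlapped on both measures (exact permutation p = 0.114 for each), and in estimated reads CONTROL-TIA culture 7 had 3 where OGD-TIA cultures had 2 to 5. These 3 genes lie under the filter of a mean of 0.5 FPKM, so their limma values come from the fit without a filter. The log2 difference of *Oprm1* was −0.67 in vehicle (SE 0.19, limma padj = 0.112) and −0.64 in TIA (SE 0.23, limma padj = 0.311), and over both arms *Oprm1* fell by 0.66 (SE 0.14, limma padj = 0.00857). Since 0.1 FPKM was added to values of this size, the log2 differences understate the ratio of the means, and their size depends on that constant: over both arms it was −0.13 with 1 FPKM and −1.16 with 0.01 FPKM added.

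*Oprd1*, the delta receptor, is annotated with a single isoform, so its values do not depend on how reads were split. It measured 0.505, 0.586, 0.489 and 0.687 FPKM in CONTROL-VEH, against 0.308, 0.364, 0.293 and 0.126 FPKM in OGD-VEH, with no overlap. In CONTROL-TIA it measured 0.402, 0.678, 0.541 and 0.595 FPKM and in OGD-TIA 0.435, 0.418, 0.562 and 0.326 FPKM, where the ranges overlapped. The log2 difference was −0.88 in vehicle (SE 0.31, limma padj = 0.155; exact permutation p = 0.0286) and −0.29 in TIA (SE 0.25, limma padj = 0.641; exact permutation p = 0.229). The difference between the arms, 0.59 (95% confidence interval −0.20 to 1.38), did not pass the test (limma padj = 0.792). Over both arms the log2 difference of *Oprd1* was −0.58 (SE 0.19, limma padj = 0.0611, stratified exact permutation p = 0.00408). Its limma padj ranged from 0.0401 to 0.112 over the 16 fits that left a culture out. It was 0.0402 without CONTROL-TIA culture 5 and 0.0401 without OGD-TIA culture 15.

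*Oprk1*, the kappa receptor, measured 0.194, 0.162, 0.137 and 0.088 FPKM in CONTROL-VEH, against 0.101, 0.027, 0.055 and 0.018 FPKM in OGD-VEH. In CONTROL-TIA it measured 0.207, 0.241, 0.137 and 0.191 FPKM and in OGD-TIA 0.156, 0.075, 0.093 and 0.071 FPKM. In each arm 1 OGD culture, 9 in vehicle and 13 in TIA, lay above the lowest CONTROL culture. Of the *Oprk1* FPKM, 29.1% was assigned to isoforms annotated as retained introns. On protein-coding isoforms alone the groups also overlapped in both arms (exact permutation p = 0.0857 in vehicle and 0.0571 in TIA). The log2 difference was −0.72 in vehicle (SE 0.23, limma padj = 0.133) and −0.57 in TIA (SE 0.21, limma padj = 0.317). In vehicle limma padj ranged from 0.0463, without OGD-VEH culture 9, to 0.282 over the 8 fits that left a culture out. Over both arms the summed *Oprk1* FPKM fell by 0.65 (SE 0.15, limma padj = 0.0128, stratified exact permutation p = 0.00163).

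**Figure D2:**
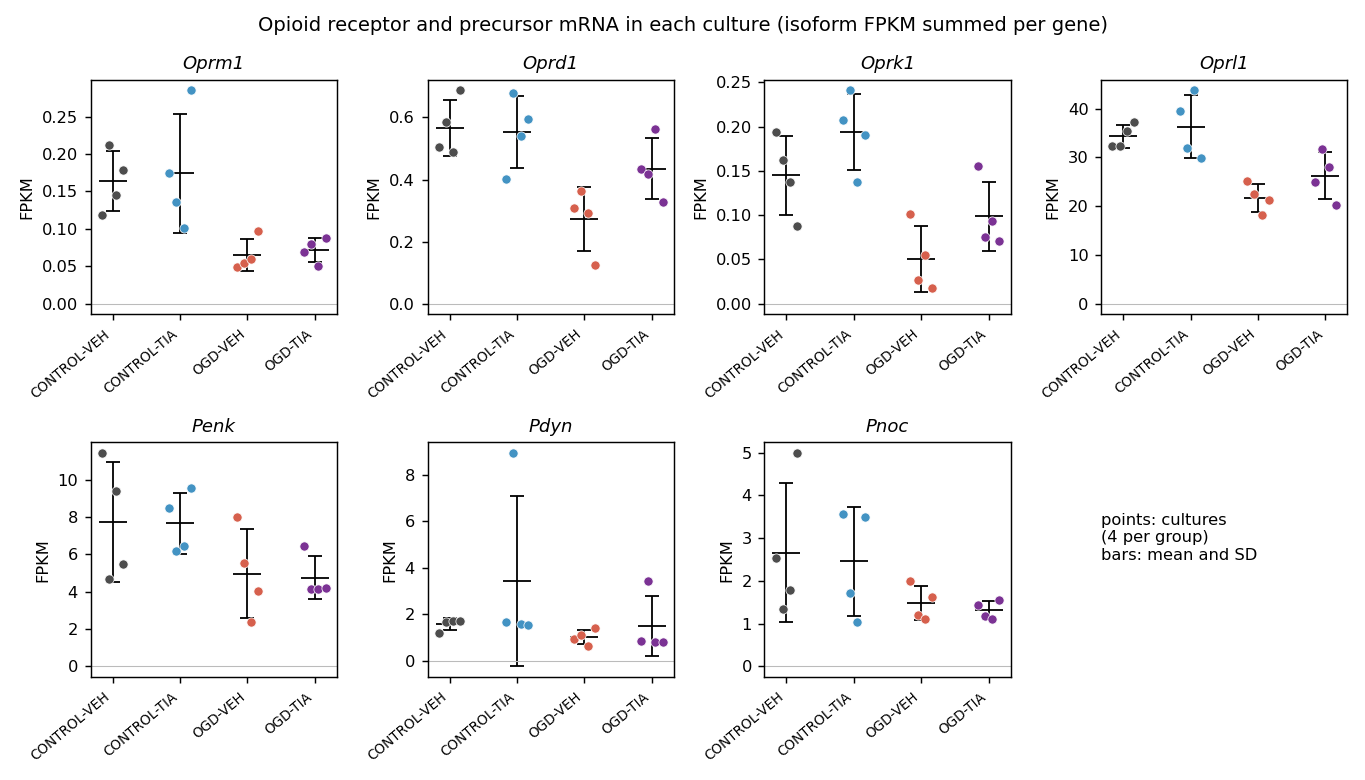
FPKM of the 7 genes in each of the 16 cultures, a panel per gene with its own linear axis, points for cultures and bars for mean and SD (n = 4). For Oprm1 all OGD cultures lie at 0.097 FPKM or lower and all CONTROL cultures at 0.101 FPKM or higher, and for Pdyn CONTROL-TIA culture 6 stands at 8.94 FPKM.

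Among the precursors, *Penk*, the source of the enkephalins, measured 11.4, 4.65, 9.38 and 5.48 FPKM in CONTROL-VEH, against 7.97, 5.53, 2.36 and 4.01 FPKM in OGD-VEH. In CONTROL-TIA it measured 8.49, 6.15, 6.42 and 9.57 FPKM and in OGD-TIA 6.45, 4.16, 4.15 and 4.21 FPKM. The ranges overlapped in both arms, in TIA only through OGD-TIA culture 13. The log2 difference was −0.66 in vehicle (SE 0.41, limma padj = 0.276) and −0.68 in TIA (SE 0.20, limma padj = 0.156), and over both arms *Penk* fell by 0.67 (SE 0.24, limma padj = 0.0401; stratified exact permutation p = 0.0196). The range of limma padj was 0.0126 to 0.0805 when a culture was left out, and the call was lost without CONTROL-VEH culture 1 or 3, CONTROL-TIA culture 5 or 8, OGD-VEH culture 11 or 12, or OGD-TIA culture 14, 15 or 16.

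*Pnoc*, the source of nociceptin, measured 2.54, 1.33, 1.78 and 4.99 FPKM in CONTROL-VEH, against 1.99, 1.21, 1.12 and 1.62 FPKM in OGD-VEH. In CONTROL-TIA it measured 3.58, 1.72, 1.04 and 3.50 FPKM and in OGD-TIA 1.43, 1.18, 1.10 and 1.56 FPKM. The CONTROL cultures spread from 1.04 to 4.99 FPKM, and the OGD cultures, from 1.10 to 1.99 FPKM, lay in the lower part of that range. The log2 difference was −0.67 in vehicle (SE 0.40, limma padj = 0.257), −0.71 in TIA (SE 0.38, limma padj = 0.337) and −0.69 over both arms (SE 0.28, limma padj = 0.0697). The last padj was 0.0441 without CONTROL-VEH culture 2 and 0.0269 without CONTROL-TIA culture 7. It ranged from 0.0269 to 0.128 over the 16 limma fits that left a culture out.

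*Pdyn*, the source of the dynorphins, measured 1.18, 1.67, 1.72 and 1.73 FPKM in CONTROL-VEH, against 0.928, 1.10, 0.646 and 1.40 FPKM in OGD-VEH. In CONTROL-TIA it measured 1.65, 8.94, 1.56 and 1.56 FPKM and in OGD-TIA 0.863, 3.43, 0.823 and 0.826 FPKM. CONTROL-TIA culture 6 and OGD-TIA culture 14 thus stood far above the other cultures of their groups. In both, most of the excess was assigned to Pdyn-202, a 369-base isoform, with 7.33 FPKM in culture 6 and 2.29 FPKM in culture 14, and it was listed at 0 in the other 14 cultures. Because the isoform is short, these values correspond to about 23 and 8 reads. In estimated reads culture 6 held 91 *Pdyn* reads against 76 to 89 in the other CONTROL-TIA cultures. Culture 14 held 60 against 46 to 50 in the other OGD-TIA cultures, so it remained the highest of its group.

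The 2386-base isoform Pdyn-201 alone measured 1.18, 1.67, 1.605 and 1.597 FPKM in the CONTROL-VEH cultures, where OGD-VEH cultures had 0.779, 0.969, 0.646 and 1.12 FPKM. With TIA it measured 1.53, 1.11, 1.43 and 1.44 FPKM in CONTROL-TIA, where OGD-TIA cultures had 0.863, 0.797, 0.823 and 0.826 FPKM. All OGD cultures of an arm lay below all CONTROL cultures of that arm on this measure, which was chosen after the values were seen. The summed *Pdyn* value differed by −0.61 in vehicle (SE 0.27, limma padj = 0.148), by −0.98 in TIA (SE 0.67, limma padj = 0.436) and by −0.80 over both arms (SE 0.37, limma padj = 0.108). With isoforms weighted by their length, which gives short isoforms less weight, *Pdyn* fell by 0.77 over both arms (SE 0.15, limma padj = 0.00156). CONTROL-TIA culture 6 was still the highest of its group on that measure, at 3.49 against 2.15 to 2.30. With Pdyn-201 alone *Pdyn* fell by 0.70 (limma padj = 0.00269). Whether *Pdyn* passed the threshold therefore depended on how its isoforms were summed. With summed FPKM it also passed without OGD-TIA culture 14 (−1.003, limma padj = 0.0371). Over the 16 fits that left a culture out, limma padj of the summed value ranged from 0.0371 to 0.186.

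**Figure D3:**
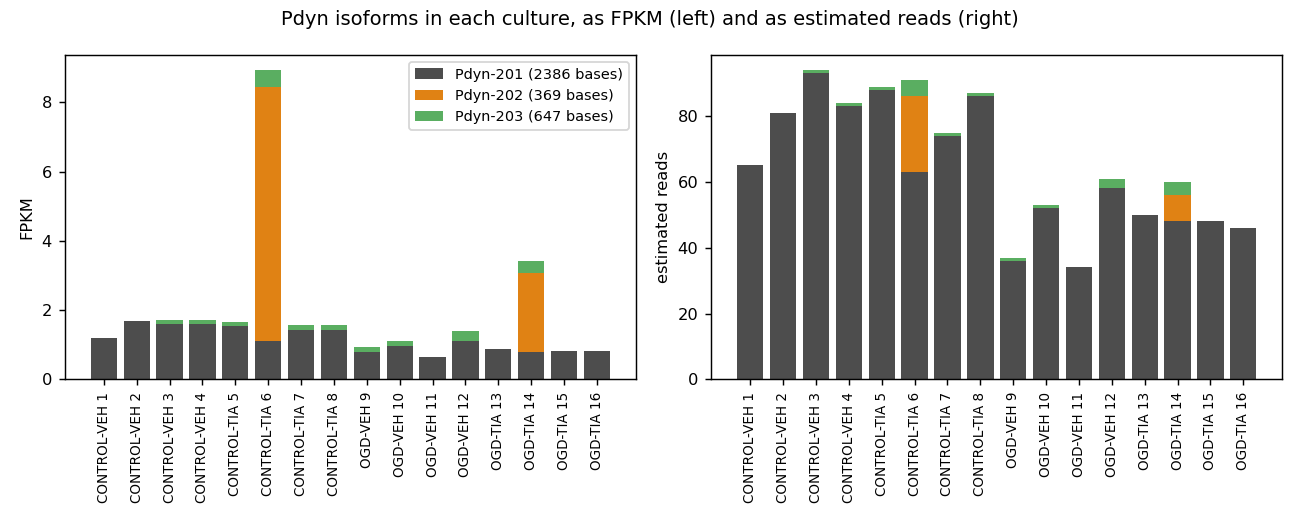
Pdyn isoforms in each culture, stacked, as FPKM on the left and as estimated reads on the right. The short isoform Pdyn-202 gives 7.33 of 8.94 FPKM in CONTROL-TIA culture 6 but about 23 of 91 estimated reads, and the OGD cultures hold 34 to 60 estimated reads of Pdyn against 65 to 94 in the CONTROL cultures.

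Across the members, all 7 log2 differences were below 0 in vehicle (median −0.67), in TIA (median −0.64) and over both arms (median −0.66), where the medians of all genes tested were 0.10, 0.04 and 0.08. Without a filter, 44.7%, 48.0% and 45.7% of all genes were below 0 in these comparisons. Of the 4 members that passed the filter, 1 was lower in OGD-VEH at limma padj ≤ 0.05, against 3.45% of 16346 genes. None was lower in OGD-TIA against CONTROL-TIA, where 0.0% of 16242 genes were called lower or higher by limma, although 1286 were lower and 1888 higher at an unadjusted p under 0.05. The paper, which used DESeq2, reported differentially expressed genes in both directions for these groups, so the 0.0% belongs to the limma test on FPKM. Over both arms 2 of these 4 members, *Oprl1* and *Penk*, were lower, against 13.4% of 16313 genes. In the fit without a filter 3 of 7 members, *Oprl1*, *Oprm1* and *Oprk1*, were lower, against 5.42% of 35341 genes, and *Penk* did not pass there. With 0.1 FPKM added, no member reached a log2 fold change of −1 together with that padj, the rule for differentially expressed genes (DEGs). Of the genes that passed the filter, 1.68% met it downward in vehicle, 0.0% in TIA and 1.99% over both arms. The 3 classical receptors lay under the filter, and the added constant compressed their log2 differences. In vehicle their means went from 0.164 to 0.065 FPKM (*Oprm1*), 0.567 to 0.273 (*Oprd1*) and 0.145 to 0.0502 (*Oprk1*). Without a filter and with 0.01 FPKM added, *Oprm1*, for example, met the rule over both arms. At an unadjusted p under 0.05 in the limma fit without a filter, 4 of 7 members were lower in vehicle, against 9.14% of 32532 genes, 4 of 7 in TIA, against 5.83% of 32830, and 6 of 7 over both arms, against 11.4% of 35341, with *Pdyn* the exception. All 4 OGD cultures lay below all 4 CONTROL cultures for 3 members in vehicle (*Oprm1*, *Oprd1* and *Oprl1*), against 7.8% of 23733 genes that averaged 0.05 FPKM or more, and for 1 member in TIA (*Oprm1*), against 5.88% of 23613 genes. With length-weighted isoforms the same 3 members were separated in vehicle, whereas in TIA *Oprm1* overlapped and *Oprk1*, *Oprl1* and *Pdyn* were separated (exact permutation p = 0.0286 for each), so which members separated in TIA depended on how isoforms were summed. In RNA from a whole culture, fewer cells of a type and less RNA per cell cannot be told apart.

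**Figure D4:**
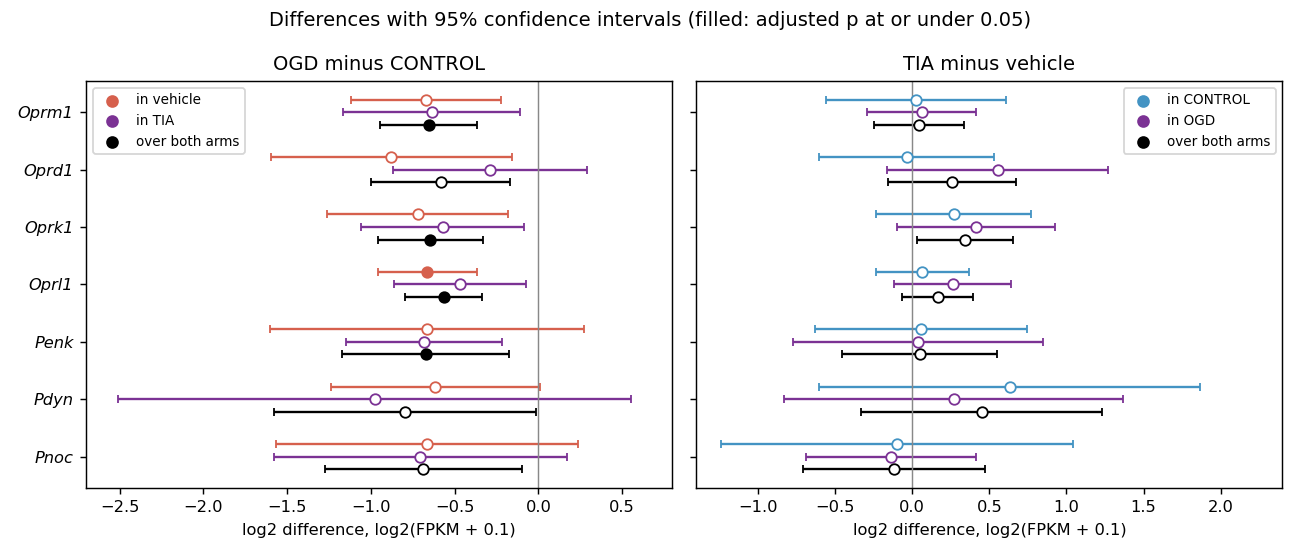
Log2 differences of the 7 genes with 95% confidence intervals (limma), OGD minus CONTROL on the left and TIA minus vehicle on the right, in each arm and over both arms. Filled points have an adjusted p of at most 0.05; all estimates on the left are below 0, from −0.98 to −0.29, and on the right the intervals hold 0 except for Oprk1 over both arms (0.03 to 0.66).

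The question of the second comparison is whether TIA changed the mRNA of its known target or of the rest of the system. *Oprm1* averaged 0.164 ± 0.0405 FPKM in CONTROL-VEH and 0.174 ± 0.0798 FPKM in CONTROL-TIA (SD, n = 4), with overlapping cultures. The log2 difference, TIA minus vehicle, was 0.03 (95% confidence interval −0.56 to 0.61, limma padj = 1.0) in CONTROL and 0.06 (−0.29 to 0.41, limma padj = 0.880) after OGD. At the few reads of *Oprm1*, a difference within these intervals could not be told from no difference. As in the OGD comparison, the added 0.1 FPKM compresses log2 differences at values of this size. The intervals therefore do not bound the ratio of the *Oprm1* means.

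For the other receptors the TIA difference in CONTROL was −0.04 for *Oprd1*, 0.27 for *Oprk1* and 0.07 for *Oprl1*, and after OGD it was 0.55 (95% confidence interval −0.16 to 1.27), 0.42 (−0.10 to 0.93) and 0.26 (−0.12 to 0.64). After OGD the group means of these 3 genes were higher with TIA, at 0.435 against 0.273 FPKM for *Oprd1*, 0.0987 against 0.0502 for *Oprk1* and 26.3 against 21.7 for *Oprl1*, and the cultures of the groups overlapped in each case (exact permutation p = 0.0571, 0.143 and 0.200). Over both arms *Oprk1* had the smallest unadjusted p, with a log2 difference of 0.34 (95% confidence interval 0.03 to 0.66, limma padj = 0.753, stratified exact permutation p = 0.0274). The added 0.1 FPKM also compresses the log2 differences of *Oprk1* and, to a lesser degree, of *Oprd1*. Their intervals do not bound the ratio of the means either.

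For the precursors the TIA difference was 0.06 for *Penk* in CONTROL (95% confidence interval −0.63 to 0.74) and 0.04 after OGD (−0.77 to 0.85). For *Pnoc* it was −0.10 (−1.24 to 1.04) and −0.14 (−0.69 to 0.41). For *Pdyn* it was 0.63 (−0.61 to 1.87) and 0.27 (−0.83 to 1.37), and turned to −0.13 and −0.05 with Pdyn-201 alone. No member passed the limma test for TIA in CONTROL, after OGD or over both arms (lowest padj 0.937, 0.555 and 0.637), nor for a difference of the OGD effect between the arms (lowest padj 0.787). No member had an unadjusted limma p under 0.05 in these comparisons other than *Oprk1* over both arms. With a filter at 0.05 FPKM that limma p was 0.0581. With length-weighted isoforms the stratified exact permutation p over both arms was 0.0384 for *Oprl1* and 0.0588 for *Oprk1*. Which member fell under 0.05 thus depended on the filter and on how isoforms were summed. No gene that passed the filter was called by limma at padj ≤ 0.05 in these 4 comparisons (0.0% lower and 0.0% higher), whereas at an unadjusted p under 0.05 limma gave 621 genes for TIA in CONTROL, 1293 after OGD, 1176 over both arms and 988 for the difference between the arms. The interval of *Oprl1*, the narrowest in CONTROL, ran from −0.24 to 0.37.

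The surrounding pathway is given by gene lists chosen by function, with counts at limma padj ≤ 0.05 among the listed genes that passed the filter. Of all genes tested, 3.45% were lower and 4.99% higher in OGD-VEH, and 13.4% were lower and 18.7% higher over both arms, and the counts are to be read against these shares. Among enzymes and helpers that process precursors to peptides, 2 of 7 were lower and none higher in OGD-VEH, and 3 of 7 were lower over both arms (median −0.10, all genes 0.08). They were *Pcsk2*, prohormone convertase 2, which fell by 1.19 over both arms (padj = 0.0038), *Pcsk1*, prohormone convertase 1, which fell by 0.68 (padj = 0.0152), and *Pcsk1n*, an inhibitor of *Pcsk1*, which fell by 0.53 (padj = 0.0151). *Pcsk2* averaged 30.5 ± 2.38 FPKM in CONTROL-VEH, 11.3 ± 6.98 in OGD-VEH, 30.5 ± 1.50 in CONTROL-TIA and 18.5 ± 5.10 in OGD-TIA. Of 6 tested genes for peptidases that degrade opioid peptides none passed the test over both arms (*Ace*, −0.36, padj = 0.0671; *Lnpep*, 0.30, padj = 0.0938), and none did in OGD-VEH.

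Downstream of the receptors, 5 of 8 tested Gi/o protein and GIRK channel genes were lower over both arms, against 13.4% of all genes, and 1 was higher (median −0.55; −0.80 in vehicle and −0.29 in TIA). The GIRK subunits *Kcnj9* and *Kcnj6* were downregulated DEGs, with log2 fold changes of −1.11 (padj = 0.0013) and −1.04 (padj = 0.0030), *Gnao1*, the alpha subunit of Go, fell by 0.55 (padj = 0.0034), and *Gnai3*, an alpha subunit of Gi, rose by 0.39 (padj = 0.0020). The list for receptor desensitization had 4 of 11 genes lower, against 13.4%, and 1 higher, against 18.7% (median −0.28; −0.58 in vehicle and −0.18 in TIA): the receptor kinase *Grk3* fell by 0.69 (padj = 0.0016), beta-arrestin 1 (*Arrb1*) by 0.55 (padj = 0.0032) and *Rgs9* by 0.55 (padj = 0.0075), whereas *Rgs20* rose by 0.74 (padj = 0.0205). *Rgs9* and *Rgs20* belong to the proteins that speed the shut-off of G protein signals.

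Of the known regulators of the member genes 4 of 11 were higher, against 18.7% of all genes, and none lower over both arms (median 0.48). The list median was 0.85 in vehicle and −0.02 in TIA. Over both arms the AP-1 gene *Fosl1* rose by 4.04 on the log2 scale (padj = 0.0004). Its level went from 0.112 ± 0.156 to 6.32 ± 3.01 FPKM in the vehicle groups and from 0.170 ± 0.197 to 2.08 ± 1.28 FPKM in the TIA groups. *Atf3* rose by 1.91 (padj = 0.0026), *Fos* by 1.49 (padj = 0.0038) and *Rest*, a repressor of neuronal genes that include *Oprm1*, by 0.68 (padj = 0.0052). Among other neuropeptide precursors 5 of 14 were lower over both arms, against 13.4%, and none higher (median −0.51). In vehicle alone 1 of 14 was lower, against 3.45% of all genes, and in TIA none of 13 was called, where 0.0% of all genes were. *Sst* fell by 1.72 (padj = 0.0024), *Cort* by 1.29 (padj = 0.0322) and *Npy* by 1.09 (padj = 0.0046), which makes them DEGs, unlike any opioid precursor, and *Chgb* fell by 0.43 (padj = 0.0204). Of 6 other opioid-related genes 1, *Ogfrl1*, was lower (−0.45, padj = 0.0153), a share near the 13.4% of all genes. In OGD-TIA against CONTROL-TIA, and in all comparisons of TIA with vehicle, no gene of these lists passed the limma test. There 0.0% of all genes passed, so the absence of calls is not particular to these lists.

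**Figure D5:**
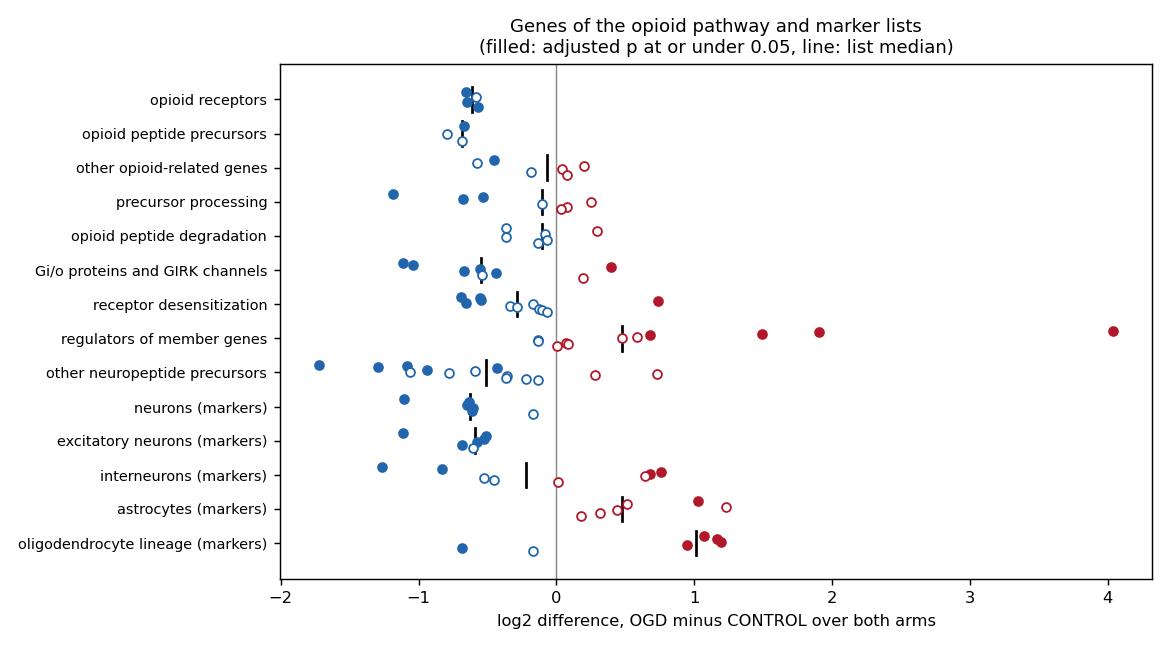
Log2 differences, OGD minus CONTROL over both arms, for each gene of the pathway and marker lists (points, blue below 0 and red above, filled at an adjusted p of at most 0.05) with the list median as a line. Receptors and precursors lie between −0.80 and −0.57, Fosl1 among the regulators is at 4.04, and Sst among other neuropeptides is at −1.72.

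Markers of the cell types in the cultures moved with OGD in the same comparison. Over both arms 5 of 6 neuronal markers were lower, against 13.4% of all genes, and none higher (median −0.62, beside a member median of −0.66). Among the lower ones were the synaptic vesicle gene *Syt1* (−1.11, limma padj = 0.0064) and *Snap25* (−0.64, limma padj = 0.0150). In vehicle alone 1 of 6 neuronal markers was lower at limma padj ≤ 0.05, against 3.45% of all genes. Within the arms the neuronal median was −0.96 in vehicle and −0.33 in TIA, where the member medians were −0.67 and −0.64. The summed neuronal markers ranged from 1814 to 2379 FPKM in CONTROL-VEH, 885 to 1696 in OGD-VEH, 1879 to 2018 in CONTROL-TIA and 1175 to 1966 in OGD-TIA. Of 6 excitatory markers 5 were lower over both arms, against 13.4% of all genes (median −0.59), and none passed in vehicle alone. The excitatory marker *Slc17a7* fell by 1.11 over both arms (limma padj = 0.0092). Of 8 interneuron markers 2 were lower and 2 higher over both arms (median −0.22), near the shares of all genes. Among these were *Lhx6* (−1.26, limma padj = 0.0091) and *Dlx2* (0.76, limma padj = 0.0114). Of 5 tested markers of striatal-type projection neurons, a main site of *Penk* and *Pdyn* in the brain, 1 was lower, against 13.4% of all genes. It was *Drd1* (−0.87, limma padj = 0.0269). The median of these markers was −0.59 over both arms, −0.96 in vehicle and −0.24 in TIA.

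Among glial markers, 4 of 6 oligodendrocyte-lineage markers were higher and 1, *Mbp*, was lower (median 1.01; *Olig2*, 1.07, padj = 0.0022; *Mbp*, −0.68, padj = 0.0090), and 1 of 6 astrocyte markers was higher (*Aldh1l1*, 1.03, padj = 0.0102; median 0.48), near the 18.7% of all genes. The summed astrocyte markers ranged from 587 to 1485 FPKM in the CONTROL and from 697 to 2338 in the OGD groups, so the cultures held glia beside neurons. Microglial markers summed to 0.522 to 3.03 FPKM, with *Cx3cr1* at 0 in all CONTROL-TIA cultures, and endothelial and mural markers to 1.61 to 6.52 FPKM, with *Cldn5* at 0 in all OGD cultures. Fibroblast and meningeal markers summed to 2.74 to 16.7 FPKM, and *Dcn*, the tested gene among 4, fell by 0.95 (padj = 0.0129). The part of these shifts in the member differences was not tested.

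A promoter sequence was available for 4 members, *Oprm1*, *Oprd1*, *Oprl1* and *Pdyn*, with 9 start sites in all (RefSeq, GRCm38.p6; 250 bases before and 50 after the start). That of *Oprd1* is shown because it stood apart in base composition: it was 79.3% G and C, at the 98.7th percentile of 32851 promoters with a median of 52.7%, while the other 8 ranged from 44.3% to 59.0%. Capitals mark GGGCGG (GC box, on either strand) and CACGTG, a palindrome that holds the hypoxia-response core ACGTG on both strands.
Oprd1 promoter (chr4:132144487-132144736, minus strand): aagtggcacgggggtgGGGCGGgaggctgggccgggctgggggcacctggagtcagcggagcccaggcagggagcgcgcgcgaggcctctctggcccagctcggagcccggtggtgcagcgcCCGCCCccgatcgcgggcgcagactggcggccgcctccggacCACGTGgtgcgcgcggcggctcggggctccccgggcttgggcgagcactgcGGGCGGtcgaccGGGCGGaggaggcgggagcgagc
The *Oprd1* window held 4 GC boxes, found in 35.7% of all promoters of this length, and ACGTG 2 times, once per strand of the overlapping palindrome, found in 19.6%. None of the 9 member windows held TGACGTCA (the cAMP response element, 1.79% of all), its shorter form CGTCA (20.8%) or TGAGTCA (the AP-1 site, 5.20%), each searched on both strands, and the 8 windows of the other members held neither ACGTG nor GGGCGG. These counts describe letters in the window and not binding.

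For the 4 members that passed the filter, the protein-coding genes whose log2 values were most like theirs over the 16 cultures were searched among 12470 genes averaging 1 FPKM or more, as a description. *Oprl1* was most like *Nptn* (neuroplastin, a synaptic adhesion protein) and *Maneal* (Pearson r = 0.90 for both). *Penk* was most like *Igf1*, an insulin-like growth factor, *Gpr173* and *Lyrm9* (r = 0.88, 0.87 and 0.85). *Pnoc* was most like *Abca8b*, *Hapln1*, a link protein of the extracellular matrix, and *Npy*, an interneuron neuropeptide (r = 0.87, 0.86 and 0.86). For *Pdyn*, whose summed value carried the 2 high cultures, the values were lower (*Scml4* and *Fntb*, r = 0.79 and 0.77). The 16 points share the OGD difference, so these correlations include it. Among the members themselves, r lay between 0.13 (*Pdyn* and *Pnoc*) and 0.69 (*Oprd1* and *Oprk1*).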

How the data were processed

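Poly(A) mRNA of 16 cultures (4 groups of 4) was measured by stranded single-end sequencing with 50-base reads. Per the paper's methods and the labels, the authors' provider mapped reads with STAR to GRCm38 (Ensembl 92), estimated isoforms with eXpress and scaled them by TMM; that the deposited isoform values are FPKM was taken from the name of the table, and whether counting used strand is not given in the sources used here. Of 135276 lines, 74 carried no identifier and were left out. FPKM cannot be tested by DESeq2, the authors' tool. Isoform FPKM were summed per symbol, 0.1 FPKM was added before log2, and genes averaging 0.5 FPKM or more over a comparison were tested with limma 3.58.1 in R 4.3.3 (empirical Bayes with a trend), with p adjusted by Benjamini-Hochberg over all genes. DEGs had padj ≤ 0.05 and moved by 1 or more on the log2 scale. Members under the filter were taken from the same fit without it. Exact permutation tests were two-sided, over 70 assignments or, over both arms, 4900. P-values measure the spread between cultures, which may be partly technical. Depth was estimated from the steps of the values of 8776 single-isoform genes, and no counting interval was computed. No 2 cultures were identical (r of log values 0.968 to 0.986). The self-test was run on simulated data. All 7 members were named, and up to 3 genes most like a member, of which 2 are not reported here; of each list, counts and at most 4 genes were named, called genes first and then by p. Members and lists were chosen with earlier results of these data known. Alternatives were other pseudocounts, filters, scaling, quality weights, length weights, protein-coding isoforms, a fit of all 16 cultures and leaving out cultures. Positions and lengths are from GENCODE M21, computed with Python 3.11.15.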

Additional observations from a re-analysis of the deposited data

Results flagged for a closer look

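Of 28 sets of 4 cultures (7 members in 4 groups), 4 held a culture whose gap to its neighbour, divided by the range of the set, exceeded Dixon's critical value, where chance flags about 1 in 20. *Pdyn* was 8.94 FPKM in CONTROL-TIA culture 6 (gap over range 0.987) and 3.43 FPKM in OGD-TIA culture 14 (0.985), both high. *Pdyn* was 1.18 FPKM in CONTROL-VEH culture 1 (0.897), which was low. *Penk* was 6.45 FPKM in OGD-TIA culture 13 (0.974), which was high. In the pair of cultures with high *Pdyn* most of the excess was assigned to the 369-base isoform Pdyn-202. The cause of these values was not tested.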

How the results depend on the processing

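No paired analysis was run. The culture numbers 1 to 16 are not shared between groups, and whether cultures of different groups shared a preparation is not stated. All tests treated the cultures as unpaired. The direction of every OGD difference of the 7 members held under all alternatives run. The number of genes called (DEGs) in OGD-VEH against CONTROL-VEH was 668 and became 36 without a filter, 1929 with quality weights, 1074 with length weights, 1412 in a fit of all 16 cultures and 351 with a filter at 0.05 FPKM (chosen after seeing the data), and from 1 (without CONTROL-VEH culture 2 or 3) to 2186 (without OGD-VEH culture 9) when a culture was left out. In OGD-TIA against CONTROL-TIA it was 0 and became 7, 80, 62, 1 and 5 under these 5 settings, and 0 to 16 with cultures left out. For OGD over both arms it was 780, with 394 at a pseudocount of 1 and 526 to 1058 with cultures left out. For TIA in CONTROL it was 0 and 4 without a filter; for TIA after OGD 0, 4 without a filter, 408 with quality weights and 0 to 2 with cultures left out; for the interaction 0, 3 without a filter, 101 with quality weights, 2 at 0.05 FPKM and 0 to 1 with cultures left out. Among the members that passed a fit's filter none was called a DEG, except 1 over both arms (*Pdyn*, −1.003, padj = 0.0371, without OGD-TIA culture 14; range 0 to 1). *Oprm1*, *Oprk1* and in most fits *Oprd1* lay under the filter of 0.5 FPKM and could not be called where it was kept. Without a filter and with 0.01 FPKM added, *Oprm1*, for example, met the DEG rule over both arms.

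Within vehicle, *Oprl1* lost padj ≤ 0.05 without a filter (0.0650) and on protein-coding isoforms alone (0.142, chosen after seeing the data); *Oprm1* (0.0423), *Oprd1* (0.0417) and *Oprk1* (0.0424) gained it in the fit of all 16 cultures. Over both arms *Oprd1* gained it at 0.05 FPKM (0.0339), where *Penk* lost it (0.0513). *Penk* also lost it without a filter. Small TIA differences changed sign. In CONTROL, length weights gave −0.0888 for *Oprm1*, −0.025 for *Penk* and 0.0503 for *Pnoc*, quality weights gave 0.0512 for *Oprd1*, −0.0576 for *Penk* and 0.022 for *Pnoc*, Pdyn-201 alone gave −0.1265, and protein-coding isoforms gave −0.0187 for *Oprm1*. After OGD, Pdyn-201 alone gave −0.0521 and length weights gave 0.032 for *Pnoc*. Over both arms these gave −0.0893 and 0.0412. For the interaction, *Oprm1* was −0.002 at a pseudocount of 1, *Oprk1* −0.0143 with length weights and −0.1365 on protein-coding isoforms, *Penk* 0.0207 with median-ratio scaling, 0.37 with quality weights and 0.0944 with length weights, and *Pdyn* 0.0744 with Pdyn-201 alone. With cultures left out, the TIA difference in CONTROL ranged from −0.15 to 0.16 for *Oprm1*, −0.126 to 0.0849 for *Oprd1*, −0.0285 to 0.15 for *Oprl1*, −0.15 to 0.27 for *Penk* and −0.36 to 0.25 for *Pnoc*; after OGD from −0.27 to 0.31 for *Penk*, −0.21 to 0.44 for *Pdyn* and −0.25 to 0.0067 for *Pnoc*; over both arms from −0.0367 to 0.11 for *Oprm1*, −0.0923 to 0.17 for *Penk* and −0.24 to 0.0417 for *Pnoc*; and the interaction from −0.10 to 0.21 for *Oprm1*, −0.32 to 0.25 for *Penk*, −0.84 to 0.24 for *Pdyn* and −0.39 to 0.22 for *Pnoc*. None of these sign changes came with padj ≤ 0.05, and their cause was not tested. Depth limits *Oprm1* and *Oprk1* most.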
